A study of Mus musculus with 9 samples.

Results

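In lung endothelial cells of WT mice, 10387 regions carried H3K18ac and H4K8ac but lay on no H3K27ac and no H3K4me3 region. They were 6.06% of the 171339 regions in the H3K18ac list. A region was kept when it overlapped a region of the H4K8ac list by at least 1 base and overlapped none of the H3K27ac or H3K4me3 lists. The regions were thus chosen by the peak calls of those 4 marks, so the presence or absence of these marks here is a description and no finding. The regions are called off-peak sites below, because they lie off the peaks of H3K27ac and H3K4me3. The name speaks of peak calls and not of the mark: H3K27ac reads were present on the sites, at a level also found on several other lists, as given further on.

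The series holds 9 libraries of ACT-seq, an assay in which an antibody leads a Protein A/G-Tn5 transposase to chromatin that carries a histone mark, where it cuts and tags the DNA. The libraries were made from nuclei of isolated lung endothelial cells of WT mice, and the labels give neither the age, the sex nor the number of animals. The targets were H3K9ac, H3K14ac, H3K18ac, H3K23ac, H3K27ac, H4K8ac, H2AK5ac and H3K4me3, with IgG as the control antibody. With 1 library per target there is no spread between replicates, and no test between marks or sets was made. Reads in the count table ranged from 365999 for IgG to 10044130 for H3K14ac, with 1546265 for H3K18ac, 1750024 for H4K8ac and 2533242 for H3K27ac. Intervals are exact 95% binomial or Poisson intervals and cover counting error only.

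Acetyl groups on histone tails are placed by acetyltransferases and read by bromodomain proteins. H3K27ac and H3K18ac are both made by the paralogous enzymes p300 and CBP and are widely used to mark active enhancers, while H3K4me3 marks active promoters. H4K8ac lies on another histone tail and can be placed by several acetyltransferase families. The title of the series places these profiles in a study of cystine as a source for histone acetylation at endothelial genes.

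A pair of comparison sets was drawn from the same H3K18ac list. The first, called H3K27ac-marked regions, overlapped both H4K8ac and H3K27ac and no H3K4me3 region, and it held 38159 regions. The second, called solitary H3K18ac regions, overlapped none of the H4K8ac, H3K27ac and H3K4me3 lists, and it held 72556 regions. Among 82943 H3K18ac regions with neither H3K27ac nor H3K4me3, 12.5% lay on H4K8ac and are the off-peak sites. Among 51581 H3K18ac regions with H3K27ac and no H3K4me3, 74.0% lay on H4K8ac. Without the exclusion of H3K4me3 there were 12161 sites, of which 1774 (14.6%) touched an H3K4me3 region.

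A small group of off-peak sites lay wholly inside an annotated promoter window, and these are the sites whose bases were available. The windows come from RefSeq on GRCm38.p6 and run from 250 bases before to 50 bases after a gene's start. There were 70 such sites, 45 of them at protein-coding genes. The sequences below are the whole site, 5′ to 3′ on the gene's strand, and were chosen after their values were seen. The first 3 are shown for the AP-1 motif TGANTCA, the motif whose share differed most between off-peak and H3K27ac-marked windows. Capitals mark motif letters found on either strand, namely TGANTCA for AP-1, AGATAA for the GATA family, GGGCGG for SP/KLF and CCACNAG for CTCF.
Adcy7, chr8:88288945-88289095, plus strand: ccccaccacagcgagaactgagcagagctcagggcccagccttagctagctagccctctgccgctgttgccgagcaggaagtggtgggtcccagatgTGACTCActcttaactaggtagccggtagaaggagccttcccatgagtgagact
Tex19.1, chr11:121145937-121146121, plus strand: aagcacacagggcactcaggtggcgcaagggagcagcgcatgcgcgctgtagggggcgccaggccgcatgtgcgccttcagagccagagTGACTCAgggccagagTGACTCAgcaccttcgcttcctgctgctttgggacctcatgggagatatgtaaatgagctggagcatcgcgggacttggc
Slc9a3r2, chr17:24644967-24645079, minus strand: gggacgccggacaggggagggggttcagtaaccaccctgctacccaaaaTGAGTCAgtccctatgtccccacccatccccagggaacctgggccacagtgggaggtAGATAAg
The next 4 are shown as sites without that motif, the first of them rich in SP/KLF letters.
Nfatc2, chr2:168590366-168590531, minus strand: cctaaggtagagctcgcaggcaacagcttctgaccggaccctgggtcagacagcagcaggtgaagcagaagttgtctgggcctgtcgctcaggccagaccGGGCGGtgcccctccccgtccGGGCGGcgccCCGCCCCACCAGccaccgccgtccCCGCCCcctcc
Pde4b, chr4:102569982-102570085, plus strand: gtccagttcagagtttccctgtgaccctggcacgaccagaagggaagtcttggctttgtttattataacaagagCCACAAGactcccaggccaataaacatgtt
Tcf12, chr9:71896107-71896211, minus strand: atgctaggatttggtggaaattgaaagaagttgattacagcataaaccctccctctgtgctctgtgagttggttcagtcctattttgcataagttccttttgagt
Btnl9, chr11:49187073-49187176, minus strand: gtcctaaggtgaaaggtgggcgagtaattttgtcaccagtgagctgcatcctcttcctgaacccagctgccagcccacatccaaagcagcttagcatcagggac
The Adcy7 site, at a gene for an adenylyl cyclase, was 151 bases wide, ran from 121 bases before to 29 bases after the start, and was 58.9% G and C. The nearest H3K27ac region to it lay 3.99 kb away, and none of the H3K14ac, H2AK5ac, H3K23ac and H3K9ac lists covered any of its bases. The Tex19.1 site held 2 AP-1 matches and lay 30.3 kb from H3K27ac, the farthest of the 7 shown. The Slc9a3r2 site, at a gene for a scaffold protein of ion transporters, was at the other extreme, with an H3K27ac region 0.053 kb away and H3K23ac and H3K9ac over all 113 bases. The Nfatc2 site, at a gene for a calcium-regulated transcription factor, was 71.7% G and C and held 13 CpG dinucleotides. The Tcf12 site, at a gene for an E-protein transcription factor, was 40% G and C and held 0 CpG dinucleotides. Btnl9 encodes a butyrophilin-like membrane protein, and its site was covered by H4K8ac and H3K14ac over all 104 bases.

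The off-peak sites were narrow. Their median width was 104 bases, which was also the smallest and commonest width in the H3K18ac list, and 55% had exactly that width. The third quartile was 154 bases and the widest site measured 660. H3K27ac-marked regions had a median of 221 bases with 10.1% at the commonest width. Solitary H3K18ac regions had a median of 104 bases with 88.9% at the commonest width. The H4K8ac regions on the sites were narrow too: 65.0% of the 10413 had their list's commonest width of 102 bases. The median overlap with H4K8ac was 86 bases per site, and H4K8ac covered at least 50% of the site in 6767 sites (65.1%). Of the H4K8ac regions on the sites, 381 (3.66%) touched an H3K27ac region elsewhere along their length. The choice keeps H3K27ac regions off the sites. Few bases of these narrow H4K8ac regions were left to touch one, so the low share follows in part from the choice.

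At the H4K8ac threshold, 464 sites overlapped H4K8ac by 1 to 10 bases, and just outside it 374 regions had H4K8ac within 10 bases without overlap. H3K14ac lay on 28.2% of those sites and 27.5% of the regions outside, H2AK5ac on 6.25% and 5.88%, H3K23ac on 5.60% and 3.21%, and H3K9ac on 4.09% and 2.41%. At the H3K27ac threshold, 78 sites had an H3K27ac region within 10 bases, and 96 regions outside the choice overlapped one by 1 to 10 bases. H3K14ac lay on 42.3% of those sites and 34.4% of the regions outside, and H2AK5ac on 21.8% and 13.5%. H3K23ac and H3K9ac ran the other way, with 5.13% and 2.56% of the sites against 11.5% and 17.7% of the regions outside. These shares rest on 78 sites and 96 regions and are given without intervals. In the 567 sites with H3K27ac within 100 bases, H3K14ac lay on 36.3%, H2AK5ac on 13.8%, H3K23ac on 11.6% and H3K9ac on 9.7%.

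The 4 acetylation lists that the choice did not use met the off-peak sites less often than H3K27ac-marked regions and more often than solitary H3K18ac regions. H3K14ac, an H3 tail mark placed by GCN5/PCAF and MYST-family enzymes among others, lay on 3417 sites, which is 32.9% (32 to 33.8%), against 46.5% of the whole H3K18ac list. The share was 73.8% in H3K27ac-marked regions and 16.6% in solitary H3K18ac regions. H2AK5ac, on the tail of histone H2A, lay on 1122 sites or 10.8% (10.2 to 11.4%), against 21.8% of the whole list. Its share was 41.7% in H3K27ac-marked regions and 2.50% in solitary regions. The order of the sets was the same for H3K14ac and H2AK5ac.

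H3K23ac lay on 869 sites or 8.37% (7.84 to 8.92%), against 21.7% of the whole list. H3K27ac-marked regions had 26.3% and solitary regions 2.24%. H3K9ac, a mark common at active promoters, lay on 623 sites or 6.00% (5.55 to 6.47%), against 19.7% of the whole list. H3K27ac-marked regions had 21.8% and solitary regions 1.20%. Of the off-peak sites, 5620 or 54.1% (53.1 to 55.1%), met none of these 4 lists. Of the rest, 3690 met 1 list, 902 met 2, 163 met 3 and 12 met all 4. The share on none of the 4 lists was 14.5% in H3K27ac-marked regions and 79.4% in solitary regions.

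Because a wide region meets another list more easily, the shares were also taken within width classes. At the commonest width, 25.6% of the sites (24.4 to 26.7%) lay on H3K14ac, against 45.6% of H3K27ac-marked and 14.3% of solitary regions. At that width 6.45% of sites lay on H2AK5ac, against 13.1% and 1.65% in H3K27ac-marked and solitary regions. Among wider regions, 41.9% of sites (40.5 to 43.3%) lay on H3K14ac, against 77.0% of H3K27ac-marked and 35.4% (34.4 to 36.5%) of solitary regions. The sites stayed between the other sets in each width class and for each of the 4 lists, and the intervals did not overlap. In the wider class the gap to solitary regions was small for H3K14ac. Wider H3K27ac-marked regions had a median of 235 bases, wider sites 162 and wider solitary regions 156, so the classes still differ in width.

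**Figure D1:**
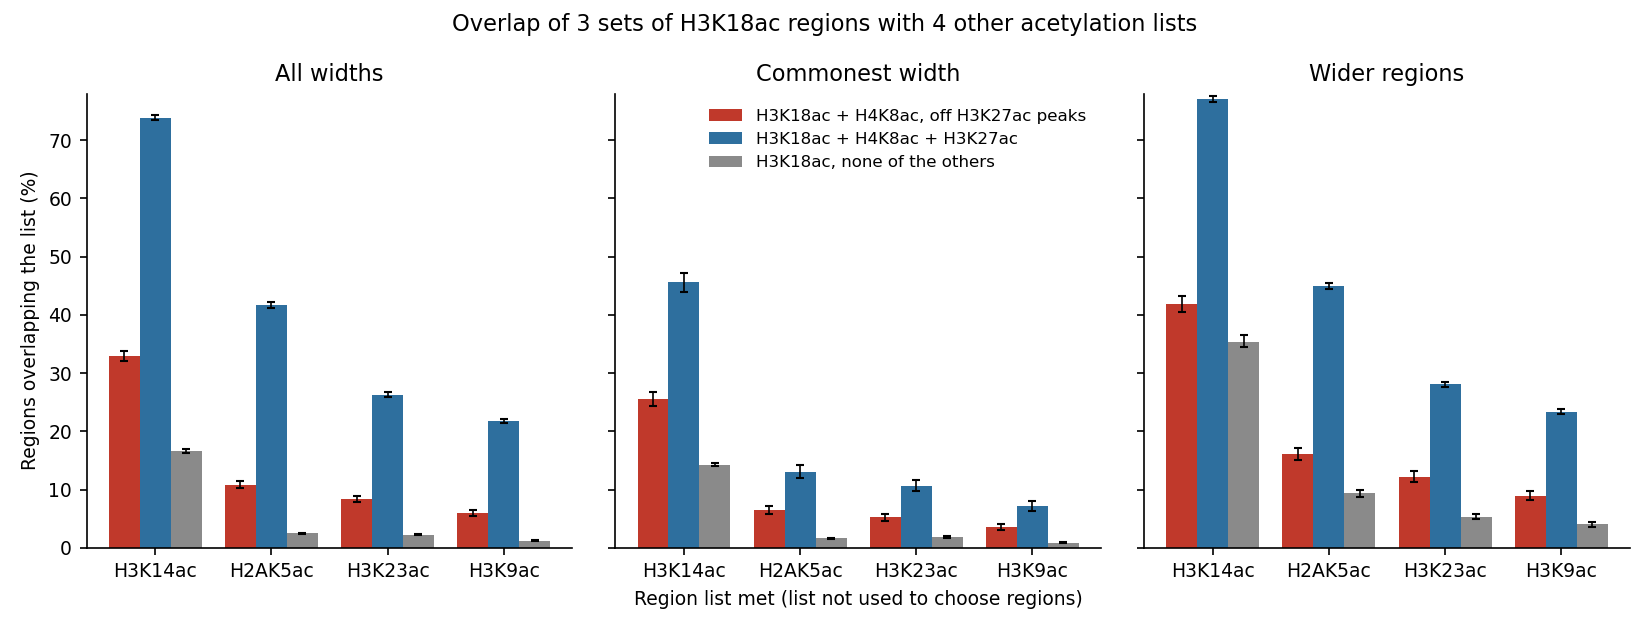
Share of H3K18ac regions (y axis, percent) that overlap each of 4 acetylation lists (x axis) for off-peak sites (red), H3K27ac-marked regions (blue) and solitary H3K18ac regions (grey), in all regions, at the commonest width and in wider regions. Bars are shares and whiskers are exact 95% binomial intervals; the red bars lie between the blue and grey bars in every group, for example 25.6%, 45.6% and 14.3% for H3K14ac at the commonest width.

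The off-peak sites often lay near H3K27ac regions without touching them. The median distance to the nearest H3K27ac region was 1.85 kb (quartiles 0.467 and 6.14 kb), and 39.0% of sites lay within 1 kb. Solitary H3K18ac regions had a median of 5.80 kb, and 18.8% lay within 1 kb. At the far end, 849 sites (8.17%) and 22.6% of solitary regions were over 20 kb from H3K27ac. The median distance to H3K4me3 was 8.25 kb for the sites and 16.0 kb for solitary regions. The sites were dispersed: the median distance from one to the next nearest was 41.7 kb, and 5.34% had another within 1 kb.

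The marks on the sites changed with the distance to H3K27ac, and not all in the same way. H3K23ac lay on 13.2% (12.2 to 14.3%) of the 4047 sites within 1 kb of H3K27ac. It lay on 7.39% of the 3274 sites at 1 to 5 kb, 3.02% of the 2217 sites at 5 to 20 kb and 3.06% (2.01 to 4.46%) of the 849 sites beyond 20 kb. H3K9ac lay on 9.56%, 5.19%, 1.71% and 3.30% of the same 4 groups in that order of distance. Both marks were most frequent next to H3K27ac. H3K14ac lay on 35.5% (34.1 to 37.0%), 31.5%, 28.6% (26.7 to 30.5%) and 37.1% (33.8 to 40.5%) of these groups. Its share was as high beyond 20 kb as within 1 kb. H2AK5ac lay on 11.9%, 11.2%, 8.93% and 8.83%. The share of sites wider than the commonest width was 49.0%, 44.6%, 37.3% and 47.1%, so width moved with H3K14ac across these groups. The part of width in these shares was not tested.

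**Figure D2:**
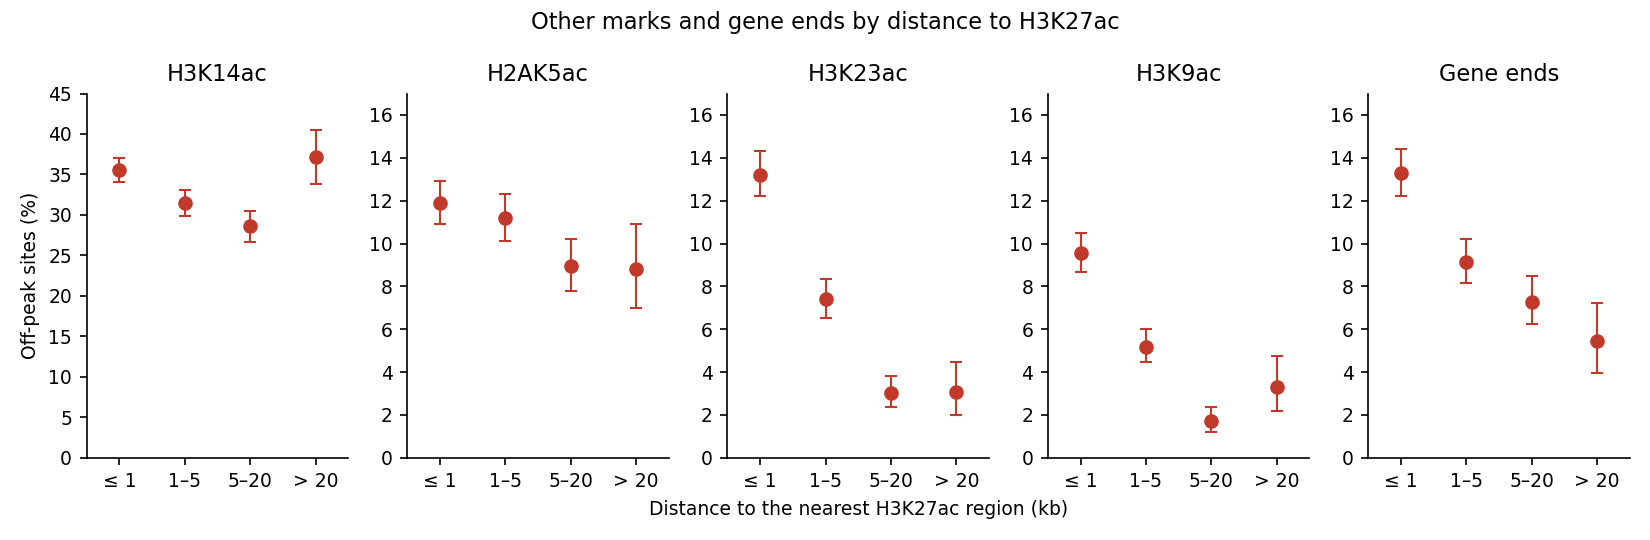
Share of off-peak sites (y axis, percent; the H3K14ac panel has its own scale) on each of 4 acetylation lists or within 2 kb of a gene end, by distance to the nearest H3K27ac region (x axis, kb). Points are shares and whiskers exact 95% binomial intervals; H3K23ac falls to 3.06% and gene ends to 5.43% in the farthest group, while H3K14ac is at 37.1% there.

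Most off-peak sites lay away from gene starts. Of the 10110 sites on chromosomes 1 to 19, X and Y, 10.1% (9.48 to 10.7%) lay within 2 kb of either end of a protein-coding gene, against 16.7% of the whole H3K18ac list. The share was 7.35% (7.09 to 7.62%) in H3K27ac-marked regions and 8.02% (7.82 to 8.22%) in solitary regions, so over all widths it was highest in the sites. Within width classes the intervals partly overlapped. At the commonest width it was 10.6% (9.78 to 11.4%) in sites, 9.75% (8.82 to 10.7%) in H3K27ac-marked and 7.96% in solitary regions. Among wider regions it was 9.43% (8.59 to 10.3%), 7.08% and 8.49% (7.88 to 9.13%) in the same order. Farther inside genes lay 52.1% of sites, 52.2% of H3K27ac-marked regions and 43.9% of solitary regions. Outside genes lay 37.8% of sites, 40.4% of H3K27ac-marked regions and 48% of solitary regions. The median distance to an annotated start was 24.8 kb for sites, 26.3 kb for H3K27ac-marked regions and 31.4 kb for solitary regions. The share at gene ends was 13.3% in sites within 1 kb of H3K27ac and 5.43% in those beyond 20 kb. Where sites within 1 kb of an H3K27ac or H3K4me3 region were left out, it was 7.15%. With starts alone, 5.43% (5.00 to 5.89%) of sites lay within 1 kb of one, against 3.89% of H3K27ac-marked and 3.63% of solitary regions and 12% of the whole list. Whether a site is exonic, intronic or in a UTR was not analysed here.

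No chromosome stood far from the rest. The sites were between 5.45% (chromosome 16) and 6.99% (X) of the H3K18ac regions of chromosomes 1 to 19 and X. On chromosome Y they were 6 of 141 regions.

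The widest off-peak sites show the range of surroundings. The widest, at chr12:112552458-112553117 and 660 bases long, lay in no protein-coding gene and 0.198 kb from an H3K27ac region. H4K8ac covered 204 of its bases and H3K14ac 138. The third widest, at chr10:86992601-86993175 (575 bases), lay in Stab2, which encodes a scavenger receptor for hyaluronan of sinusoidal endothelium. H4K8ac covered 280 of its bases, H3K14ac 216 and H2AK5ac 129, and H3K27ac lay 2.31 kb away. The site at chr5:64321327-64321874 in Tbc1d1, a gene for a Rab GTPase-activating protein, had H3K14ac over 187 bases and H3K9ac over 117. The site at chr13:52765556-52766025 lay 35.1 kb from H3K27ac and was met by none of the 4 other lists. Of the 10 widest, 8 were met by H3K14ac and 5 lay within 1 kb of an H3K27ac region.

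Read levels could be given for few single sites. The count table gives 1 count for all regions that share an identifier, and those regions mostly lie at unrelated places. In addition, a read that touches regions of more than 1 identifier was discarded, so only bases free of other regions (unshared bases) can hold reads. For 108 sites the other regions under the same identifier had 0 unshared bases, so the count belongs to the site. Those sites had 5880 unshared bases in all. Most of them lay on chromosomes 2 to 9, so they are not an even sample of the off-peak sites. H3K18ac had 320 reads there, or 35.2 CPM per kb (reads scaled to the library's total in the table and to kb of unshared bases; 31.4 to 39.3), in 37 of the 108 sites. H3K27ac had 174 reads, or 11.7 CPM per kb (10 to 13.6), in 48 of the 108 sites. H4K8ac had 41 reads (3.98, 2.86 to 5.41) in 12 sites. The bases of a site under its H4K8ac region are shared and could not be counted, so a low H4K8ac count follows in part from the choice. Most of these sites held no counted read of H4K8ac, and most held none of H3K18ac, which does not show that the marks were absent. Counts in the other libraries were H3K14ac 62, H3K4me3 10, H3K9ac 8, H3K23ac 2, H2AK5ac 0 and IgG 0. For 0 IgG reads the interval reaches 1.71 CPM per kb. In bulk libraries, fewer cells with a mark and fewer marked histones per cell cannot be told apart.

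In the comparison sets, bases found the same way are given as a description and not as a contrast, since H3K27ac peaks chose the sets. H3K27ac was at 9.96 CPM per kb (8.68 to 11.4) in 233 H3K27ac-marked regions, where only the parts that no H3K27ac region covers are counted. In 1003 solitary regions it was at 10.7 (10.3 to 11.1). H3K18ac was at 27.9 (25.2 to 30.9) in H3K27ac-marked and 65.9 (64.6 to 67.1) in solitary regions, and H4K8ac at 7.74 (6.4 to 9.27) and 2.41 (2.19 to 2.65). The solitary regions held 100965 unshared bases in all, close to their whole width, while the sites held short pieces. Short pieces lose more reads to the discard at their edges, so levels are not comparable between sets in absolute terms.

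**Figure D3:**
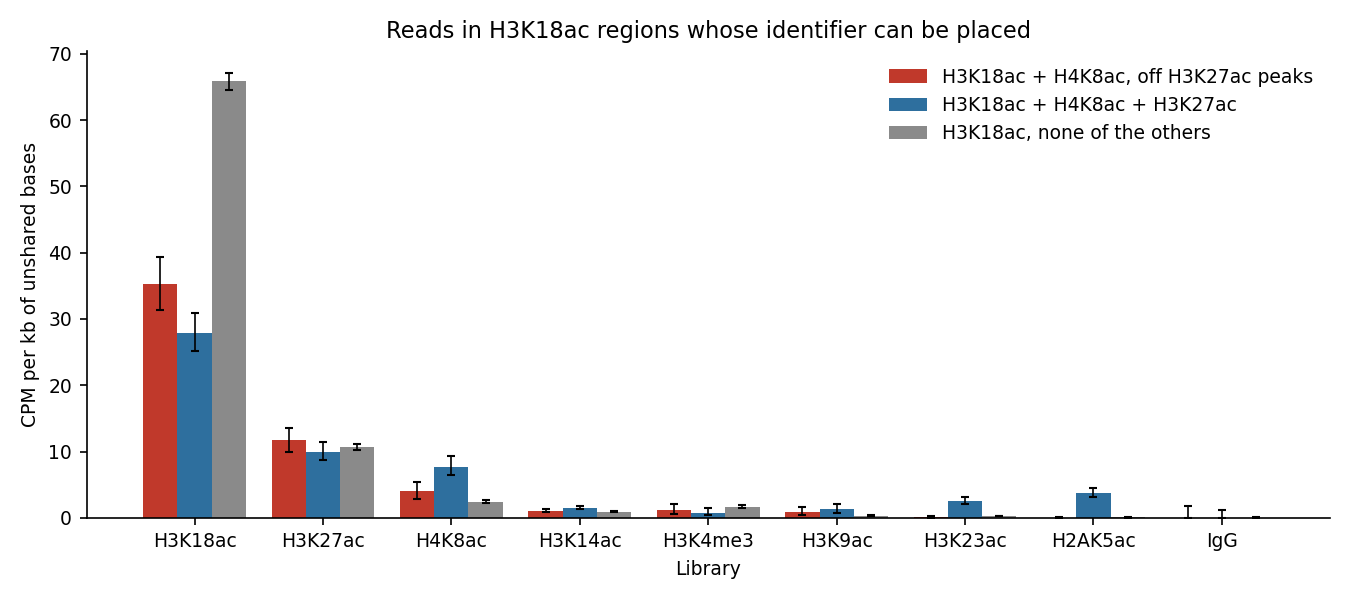
CPM per kb of unshared bases (y axis) in each library (x axis) for regions whose count belongs to 1 place: 108 off-peak sites (red), 233 H3K27ac-marked regions (blue) and 1003 solitary H3K18ac regions (grey). Bars pool the regions of a set and whiskers are exact 95% Poisson intervals; H3K27ac is at 11.7, 9.96 and 10.7 in the 3 sets.

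A level was also estimated over all identifiers, with 1 level for each list and each set. H3K27ac was estimated at 12.9 CPM per kb on the sites, 11.9 on H3K27ac-marked and 11.9 on solitary H3K18ac regions. Its level on the unshared bases of the H3K27ac list itself was 44.2, and on those of the H3K14ac list 5.64. H3K18ac was estimated at 49.7 on the sites, 47.8 on H3K27ac-marked and 71.4 on solitary regions. H4K8ac was estimated at 45.9 on the H4K8ac regions that meet the sites and 83.8 on the other H4K8ac regions. On the former, only bases outside the H3K18ac regions count. Unshared bases were 28.8% of the bases of the sites, 6.42% of H3K27ac-marked and 85.3% of solitary regions. Calls of H3K18ac and H4K8ac also chose the sets, so the levels of these marks are a description and not a contrast. IgG was estimated at 79.7 on the H4K8ac regions that meet the sites, 3.26 on the sites, 33.2 on H3K27ac-marked and 5.57 on solitary regions. IgG had reads in 903 identifiers, and its 100 highest held 74.2% of them, so these values follow from few places. With the 0.1% of identifiers highest in each library left out, IgG was at 0.00509 on those H4K8ac regions and 0.0363 on the sites, where H4K8ac was at 44.6 and H3K18ac at 48.6.

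Single sites differed in which library had reads. At chr9:114039031-114039619, the second widest site, the 237 unshared bases held 21 H3K14ac, 13 H3K18ac and 3 H3K27ac reads and none of the other libraries. At chr2:71652625-71652843, H3K18ac had 17 reads and H3K27ac 15 on 165 unshared bases, and an H3K27ac region lay 0.178 kb away. At chr5:117551038-117551265 in Ksr2, which encodes a scaffold of the RAF-MEK-ERK cascade, there were 17 H3K18ac, 3 H3K27ac and 2 H4K8ac reads on 126 unshared bases, and H3K27ac lay 37.6 kb away. H3K27ac reads were close to H3K18ac reads in number at the second of these 3 sites and well below them at the others. They were picked after their values were seen.

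Inside protein-coding genes the sites were spread thinly. At least 1 site lay inside 3629 of 21887 protein-coding genes (16.6%), and at least 1 H3K27ac-marked region in 6712 (30.7%). Of the genes with a site, 2427 held 1, 702 held 2 and 85 held 6 or more. Of the 3629 genes with a site, 2638 also held an H3K27ac-marked region and 991 did not, where 30.7% of all genes held one. Genes with a site thus held an H3K27ac-marked region more often than genes at large. This comparison was not matched for gene length, and genes with a site were more often long, as given below. The part of length in it was not tested. A gene with no H3K27ac-marked region can still hold an H3K27ac region, since the term covers only H3K18ac regions on H4K8ac and H3K27ac. Over all genes the density was 0.567 sites and 2.02 H3K27ac-marked regions per 100 kb. Long genes hold more: 4.51% of genes under 20 kb had a site, and 63.5% of genes of 200 kb or more did.

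Foxp1, which encodes a forkhead transcription factor, held the most sites, 15 of its 108 H3K18ac regions. Dock9, which encodes an activator of the small GTPase CDC42, held 14 of 73 and Pde4d, a cyclic AMP phosphodiesterase gene, 14 of 166. Cdh13 (T-cadherin), Msi2 (an RNA-binding protein) and Ptpn14 (a tyrosine phosphatase that restrains YAP) held 11 each. Etv6 (an ETS-family repressor), Gnaq (a G protein subunit), Magi1 (a junctional scaffold) and Maml2 (a Notch co-activator) held 10 each. All 10 are long, from 148 kb for Ptpn14 to 1302 kb for Pde4d. Per length, Dock9 held 5.39 sites and 13.1 H3K27ac-marked regions per 100 kb, and Pde4d 1.08 and 4.76. Ptpn14 was the exception among the 10, with more sites (11) than H3K27ac-marked regions (8).

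Of genes of at least 20 kb with at least 5 sites, Ahdc1 had the highest density at 8.98 sites per 100 kb, with 6 sites and 2 H3K27ac-marked regions. Its 6 sites were met by none of the 4 other acetylation lists. Smad1, which encodes a transcription factor of BMP signalling, followed at 8.19 per 100 kb with 5 sites and 7 H3K27ac-marked regions. The 5 Smad1 sites lay between 0.161 and 2.09 kb from H3K27ac. One of them, chr8:79367330-79367587, was met by H3K14ac, H2AK5ac and H3K23ac. Ptpn14, Gna12 (a G protein subunit), Capzb (an actin-capping subunit) and Cuedc1 had 7.41, 7.09, 7.08 and 6.32 sites per 100 kb. Tnc (the matrix protein tenascin C), Tgfbr2 (the type II TGF-beta receptor) and Chst15 (a sulfotransferase) had 5.73, 5.70 and 5.70.

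Acvr2a, which encodes a type II activin receptor, was the tenth by density at 5.61 per 100 kb and the only one of these 10 with no H3K27ac-marked region. That term covers regions of the H3K18ac list alone. An H3K27ac region did lie inside the gene, 4.30 kb from the site chr2:48886220-48886323. Acvr2a held 5 sites among 6 H3K18ac regions. All 5 were 104 bases wide and lay between 4.30 and 15 kb from the nearest H3K27ac region. H3K14ac met 4 of them, over 46 to 97 bases, and H2AK5ac, H3K23ac and H3K9ac met none. The nearest in place to the Acvr2a start was chr2:48829327-48829430, where H4K8ac covered 67 bases.

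Endothelial identity genes held sites more often than protein-coding genes at large. A site lay in 15 of 32 endothelial identity genes (46.9%, against 16.6% of all protein-coding genes), and an H3K27ac-marked region in 16 (50%). The density was 1.95 sites per 100 kb, against 0.567 over all genes, and 5.41 H3K27ac-marked regions against 2.02. The list was thus above all genes for H3K27ac-marked regions as well as for the sites. The median length was 21.8 kb in this list and 17.2 kb over all genes. With sites over 1 kb from H3K27ac and H3K4me3 alone, 21.9% of the list and 11% of all genes had one. With sites wider than the commonest width alone, the shares were 21.9% and 8.43%. The lists were chosen with earlier results of these data known, and no test was made.

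By role, Vwf (von Willebrand factor, a secreted clotting protein of endothelium) held the most in that list, with 4 sites among 18 H3K18ac regions and 3 H3K27ac-marked regions. Its 4 sites all lay within 0.402 kb of an H3K27ac region and were met by none of the 4 other lists. Among receptors, Flt1 (a VEGF receptor) held 3 sites and 6 H3K27ac-marked regions, and Kdr (the main VEGF receptor of endothelium) 1 and 4. Tie1, an orphan receptor of the angiopoietin system, held 1 and 0. Among transcription factors, the ETS-family genes Erg, Fli1 and Elk3 held 3 sites each, beside 4, 14 and 11 H3K27ac-marked regions. Sox17, an arterial SOX factor, held 2 and 0 in a gene of 6.50 kb. Among surface proteins, Emcn (a sialomucin) and Ptprb (the phosphatase VE-PTP) held 3 sites each, and Pecam1 (CD31) and Eng (a TGF-beta co-receptor) 1 each. Cdh5 (VE-cadherin), the first gene of the list with none, held 0 sites and 4 H3K27ac-marked regions among 12 H3K18ac regions. Tek, another endothelial marker gene, held no site either.

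In the list of junction, adhesion and cytoskeleton genes, 18 of 25 (72.0%) held a site at 1.26 per 100 kb, and 24 held an H3K27ac-marked region. Its median gene length was 144 kb, so the share is not comparable with that of short genes. Sites lay in 6 of 17 arterial and Notch genes (1.40 per 100 kb), among them Mecom (a zinc finger transcription factor) with 5 and Unc5b (a netrin receptor) with 3. Sites lay in 6 of 14 venous and lymphatic genes (1.05 per 100 kb), among them Nrp2, a VEGF-C co-receptor gene, with 3 and Ephb4, a venous ephrin receptor gene, with 2. In angiogenic growth genes there were sites in 5 of 21 (1.03 per 100 kb), with 3 in Itgav, the integrin alpha V gene. Lung capillary genes had sites in 2 of 15 (0.604 per 100 kb), with 2 in Cd36, a fatty acid receptor gene, and 1 in Prx. Lung capillary genes were near all genes, with a share of 13.3% against 16.6% and a density that rests on 3 sites.

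Of genes for cystine, cysteine and glutathione metabolism, 6 of 30 (20%) held a site, near the 16.6% of all protein-coding genes. The density was 0.687 per 100 kb. Their median length was 24.4 kb, and 16.8% of all genes of 20 to 50 kb held a site. Slc7a11, which encodes the cystine importer subunit xCT, held 1 site and 3 H3K27ac-marked regions among 16 H3K18ac regions. That site, chr3:50489159-50489349, was 191 bases wide with H4K8ac over 102 bases and H3K14ac over 107, and it lay 32.2 kb from the nearest H3K27ac region. Slc1a4, Cbs, Got1, Got2 and Txnrd1 held 1 site each. Slc3a2, the partner subunit of xCT, held 0 sites and 0 H3K27ac-marked regions among 3 H3K18ac regions. Sites lay in 2 of 23 acetyl-CoA supply genes (Dld and Cs). They lay in 5 of 20 genes of histone acetyltransferases and BET readers, with 4 each in Kat6b, a MYST-family acetyltransferase gene, and Ncoa3, a nuclear receptor co-activator gene, and in 4 of 18 histone deacetylase genes, with 5 in Hdac9 and 2 in Hdac4. Densities in these 3 lists were 0.312, 0.750 and 0.538 per 100 kb, against 0.567 over all genes.

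Among lists of other cell types, there was a site in 1 of 19 lung epithelium genes (5.26%, Abca3), 2 of 21 leukocyte genes (9.52%, Csf1r and Spi1), 2 of 19 mesenchyme genes (10.5%, Col1a1 and Myh11), and 0 of 20 liver, pancreas and muscle genes. Over all protein-coding genes the share was 16.6%. Densities were 0.313, 0.396, 0.376 and 0 sites per 100 kb, against 0.567 over all genes. Median lengths were 5.12 kb in the epithelium list and 8.14 kb in the leukocyte list, and 4.51% of all genes under 20 kb held a site, so the shares of these lists were not below that of short genes. The liver, pancreas and muscle list, with a median of 10.4 kb, held a site in 0 of 20 genes. At a share of 4.51%, so few genes cannot show that the list was below it. The mesenchyme list had a median of 31.8 kb, and its 10.5% stood beside 16.8% of all genes of 20 to 50 kb. With 2 of 19 genes, that difference is too small to read. The neuron list had a site in 4 of 18 genes, or 22.2%, above the share of all genes, but its genes are long and the density was 0.0463 per 100 kb. Of marker genes, Csf1r and Col1a1 held 1 site each, and Sftpc, Ptprc and Pdgfra, named as the first of their list with none, held 0. The marker genes Epcam, Scgb1a1, Cd3e and Pdgfrb held no site either. The part of other cell types in the sites was not tested. Stress response genes had a site in 1 of 21 and housekeeping genes in 1 of 22. Immediate-early genes had a site in 0 of 19, although 5 of them held an H3K27ac-marked region at 5.65 per 100 kb; their median length was 3.75 kb.

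**Figure D4:**
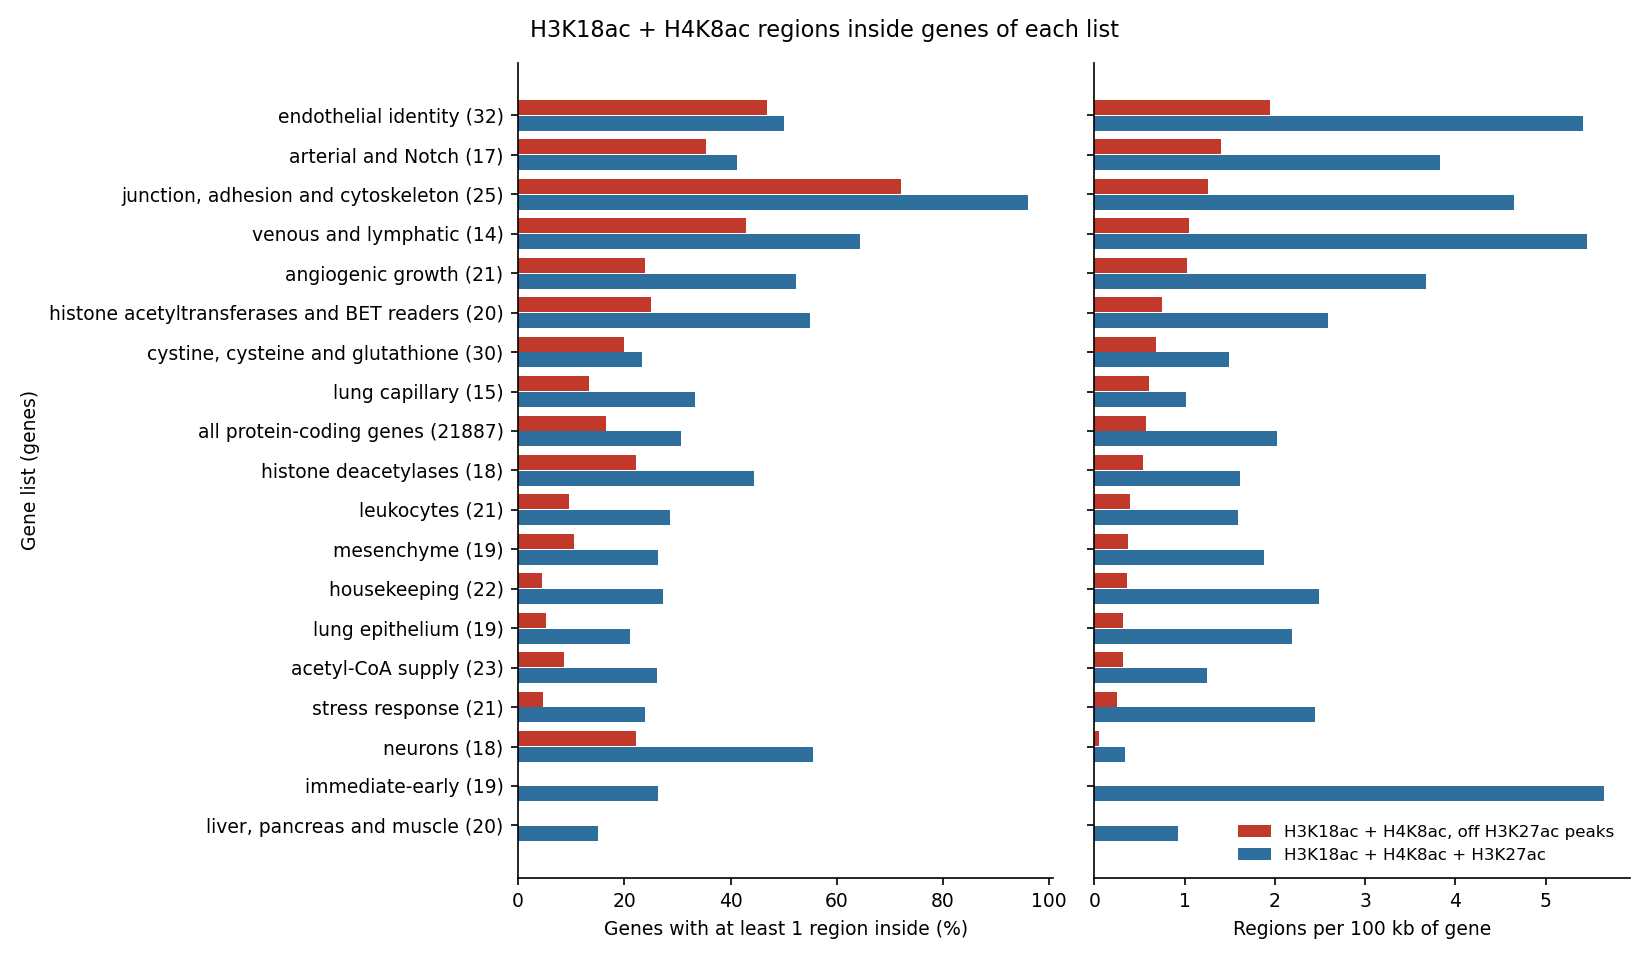
Share of genes with at least 1 region inside (left, percent) and regions per 100 kb of gene (right) for each gene list (y axis, genes in brackets), for off-peak sites (red) and H3K27ac-marked regions (blue), ordered by the density of sites. Endothelial identity is highest at 1.95 sites per 100 kb, against 0.567 over all protein-coding genes.

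Promoter windows that met an off-peak site held AP-1 letters less often than windows that met an H3K27ac-marked region. AP-1 factors of the FOS and JUN families bind such letters. Each of the 32851 windows of 300 bases (27025 genes, some with several starts) was put in 1 set, the sites taking precedence and then H3K27ac-marked regions. TGANTCA stood in 22 of 166 windows on sites, or 13.3% (8.50 to 19.4%). It stood in 168 of 587 windows on H3K27ac-marked regions, or 28.6% (25 to 32.5%), and in 76 of 629 on solitary regions, or 12.1% (9.64 to 14.9%). Over all windows the share was 7.81%. The interval of the sites lay below that of H3K27ac-marked regions and overlapped that of solitary regions. Within the site itself, 9 of the 70 wholly contained sites held the motif, as in the Adcy7, Tex19.1 and Slc9a3r2 sequences above.

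The SP/KLF letters GGGCGG stood in 29.5% (22.7 to 37.1%) of windows on sites, 19.8% (16.6 to 23.2%) on H3K27ac-marked regions, 33.5% on solitary regions and 35.7% of all windows. The TEAD letters GGAATG stood in 21.1% (15.1 to 28.1%) on sites, 20.1% on H3K27ac-marked and 17.5% on solitary regions and 14.7% of all. The ETS letters CCGGAAG stood in 5 of 166 windows on sites, or 3.01% (0.985 to 6.89%), against 6.47% on H3K27ac-marked regions and 8.86% of all windows. For AGATAA, bound by the GATA family, the share was 13.9% on sites, against 13.6% on H3K27ac-marked regions, and for CTCF (CCACNAG) it was 17.5% against 17.7%. Median G and C content was 53.7%, 51.3%, 52.7% and 52.7% in windows on sites, on H3K27ac-marked regions, on solitary regions and over all. H3K4me3 met 7.83% of windows on sites, against 39.0% of all windows, and that difference follows in part from the choice of the sites. These shares cover only sites at annotated starts, a small part of the whole, and a match is a description of the letters and not of binding.

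**Figure D5:**
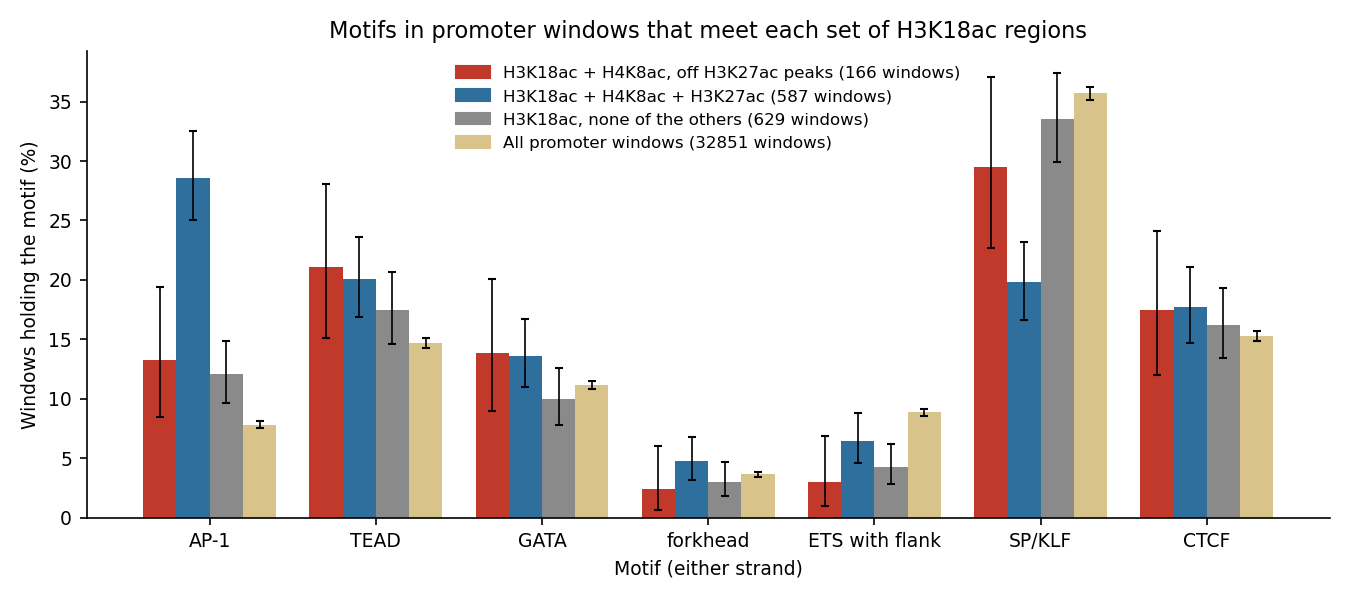
Share of promoter windows (y axis, percent) that hold each motif on either strand (x axis), for windows on off-peak sites (red), H3K27ac-marked regions (blue), solitary H3K18ac regions (grey) and all windows (tan). Whiskers are exact 95% binomial intervals; for AP-1 the shares are 13.3%, 28.6%, 12.1% and 7.81%.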

How the data were processed

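The authors deposited 1 table of raw read counts, not normalized, that covers 9 libraries and 578465 identifiers. Counting, per the file headers, was done with featureCounts 2.0.6 from a region file, as paired-end reads without strand, and a read touching regions of more than 1 identifier was not counted. The submitters' processing notes name Trim Galore, STAR, MACS2 and the builds mm10 and GRCm38.p6; settings for peaks and PCR duplicates are not stated there. The table joins 8 region lists, each numbered from 1, under shared identifiers (1309635 regions). They were separated by genome order and width: 128 steps were ambiguous, and 0 broke the order. A list took the name of the library whose CPM (reads scaled to the library total) per kb of its unshared bases was highest. The files do not state which mark a list was called from. For the H3K27ac list the highest library was H3K27ac at 44.2 and the next IgG at 20.9, on the 11.9% of its bases that were unshared; with the 0.1% of identifiers highest in each library left out these were 42.9 and 0.0295. Starts were read as counted from 0 and are given from 1. Overlap meant at least 1 base. Levels over all identifiers came from non-negative least squares (scipy 1.17.1, python 3.11.15). The separation, overlaps and levels were tested on simulated lists. Genes and promoter windows were RefSeq GRCm38.p6; 17492 of 21887 protein-coding genes had a window; sequences on chromosome 18 were left out.

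Sites and gene lists were chosen with earlier results of these data known. Named genes were the 10 with most sites, the 10 densest (at least 20 kb and 5 sites) and, per list, the 2 with most and the first with none; other genes named from a list, single sites with reads and printed sequences were chosen after their values were seen. Distances to annotated starts, single-place counts and the restriction of motifs to promoter windows were chosen after the data were seen, since no genome was used here. Alternatives covered the overlap, the exclusion distance, width, separation, window, gene span and identifiers fitted.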

Additional observations from a re-analysis of the deposited data

How the results depend on the processing

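The number of off-peak sites was 6767 with H4K8ac over at least 50% of the region, 5966 with no H3K27ac or H3K4me3 region within 1 kb, and 4669 among regions wider than the commonest width. It was 12161 without the exclusion of H3K4me3 and 10395 with lists separated by order alone. With all 10387 sites kept but an overlap with another list counted only over at least 50% of the site, the shares on H3K14ac, H2AK5ac, H3K23ac and H3K9ac were 24.0%, 6.64%, 5.91% and 4.46%. With the 1 kb exclusion they were 31.5%, 10.2%, 5.03% and 3.55%, and in wider regions 41.9%, 16.1%, 12.2% and 8.97%. The share at gene ends was 7.15% with the 1 kb exclusion, 9.43% in wider regions, 5.90% with a 1 kb window and 18.8% with a 5 kb window. The share of genes with a site was 11% with the 1 kb exclusion, 8.43% with wider sites and 24.6% with 10 kb added either side of the gene. For endothelial identity genes it was 21.9% under each of the first 2 settings and 56.2% with 10 kb added. For cystine, cysteine and glutathione genes it was 13.3%, 13.3% and 33.3%. The stricter settings leave fewer sites by construction. Separation by order alone gave shares of 32.9%, 10.9%, 8.43% and 6.01% on the 4 lists, and the level of H3K27ac on the sites stayed between 12.5 and 13 in every fit run.

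No paired analysis was possible because each mark has 1 library. The difference between sites with and without an H3K27ac region rests on the authors' peak calls in 1 library each, whose thresholds are not stated. Depth differs between libraries, from 1477463 reads for H3K4me3 to 10044130 for H3K14ac among the marks. Read levels rest on unshared bases and were placed for 108 of the 10387 sites.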

Other observations

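Of 1005 annotated miRNA hairpins in the RefSeq table, 6 overlapped an off-peak site: Mir92b, Mir135a-1, Mir1899, Mir1904, Mir6989 and Mir7008. No share of hairpins on the whole H3K18ac list or the comparison sets is given beside it, so this count is a description and no finding. On sequences other than chromosomes 1 to 19, X and Y, 277 of 3957 H3K18ac regions (7.00%) were off-peak sites; their genes were not looked up. Counted from the other mark, 10986 H4K8ac regions overlapped H3K18ac and neither H3K27ac nor H3K4me3.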
